A study of Mus musculus with 3 samples.

Results

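The genes described here are 10 hormone and granin genes of the enteroendocrine cells, namely Chga, Chgb, Gcg, Cck, Gip, Sct, Nts, Pyy, Ghrl and Sst. They were chosen by symbol, and all 10 were among the 21983 genes of the deposited count table. The study sequenced RNA from the intestine of wild-type mouse pups, 1 library for each of 3 groups, to compare a necrotizing enterocolitis (NEC) model, which mimics an inflammatory gut disease of newborns, with and without PCI34051, a drug that selectively blocks the histone deacetylase HDAC8. The PCI34051+NEC pups went through the model and received PCI34051, 10 mg/kg daily over 5 days from the day before it began. The NEC pups were put through the model and received PBS. The model was 40 µl of 33% formula by gavage every 4 h for 96 h, with hypoxia (99.9% nitrogen for 100 s) and then cold (10 min at 4 °C) every 12 h. The control pups were fed by the dam, had neither hypoxia nor cold, and received PBS. Feeding, hypoxia, cold and any disease differed together between NEC and control and cannot be told apart. The labels give neither the segment of intestine, nor the age or sex of the pups, nor how many pups went into each library.

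Enteroendocrine cells are the scattered hormone-secreting cells of the gut epithelium. They store peptides in dense-core granules, whose matrix is built by granins such as chromogranin A and B, and release them when nutrients reach receptors on their surface. The hormones change along the gut: cholecystokinin, GIP and secretin are typical of the upper small intestine, ghrelin of the stomach and upper intestine, and proglucagon products, peptide YY and neurotensin of the ileum and colon. Somatostatin, neurotensin, cholecystokinin and the granins are also made by neurons, so that a bulk library does not tell the source of these transcripts. In bulk RNA, fewer cells of a type and less RNA per cell cannot be told apart.

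Promoter sequence was read from RefSeq (GRCm38.p6), which held all 10 genes, over the 120 bases before the first listed start of each. The cyclic AMP response element (CRE), searched as TGACGTCA on both strands, lay in the window of Chgb, with its first base 72 bases before the RefSeq start, and of Sst, 48 bases before it. It lay in 1.31% of 27025 promoters. The box TATAAA lay in the windows of Gcg and Sct and in 6.76% of all promoters, and the E-box CANNTG in those of 6 members and in 40.0% of all promoters. An E-box can share its end bases with a CRE, and a match is a description of letters only. By the GENCODE annotation the starts differ: the Chgb and Ghrl windows lay wholly inside the annotated gene, 114 of the 120 bases of the Sst window and 68 of the Nts window did, and the windows of the other 6 members lay outside. Both CREs were thus inside the span of the GENCODE gene although upstream of the RefSeq start. The 30 bases around the CRE (capitals) of Chgb and Sst are shown because these members hold one, and the 52 bases of the Nts window outside the annotated gene because Nts differed most between the libraries. None of CRE, TATA box and E-box lay in the Nts window.
Chgb, chr2:132781559-132781588, plus strand: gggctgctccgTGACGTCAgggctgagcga
Sst, chr16:23890874-23890903, minus strand: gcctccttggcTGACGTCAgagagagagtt
Nts, chr10:102490487-102490538, minus strand: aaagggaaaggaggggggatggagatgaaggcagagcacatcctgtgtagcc

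Libraries held 16497580 (PCI34051+NEC), 10650638 (NEC) and 15076413 (control) counts, of which the 10 genes took 3325, 2125 and 6143. Levels are TMM-scaled CPM. Each log2 fold was taken after adding 1 CPM, which makes the difference of low genes look smaller, and a gene is called 2-fold higher or lower at a difference of 2-fold or more on that scale. Ratios are of CPM without the pseudocount, with exact 95% Clopper-Pearson intervals conditional on the summed counts, and shares have Wilson intervals. All intervals cover counting error only, and the PCR reads behind them are not independent molecules. With 1 library per group there was no spread between samples, no test and no p-value, so that values are those of single libraries rather than of conditions. The NEC library stood apart: mitochondrially encoded genes took 32.4% of its counts, against 3.73% with PCI34051 and 4.88% in the control, and 4 Y-linked genes summed to 5 counts there, against 2780 and 2616. Sex, as read from the Y-linked genes, thus differed between the NEC library and the others. In the comparisons with NEC it cannot be told apart from the model or PCI34051. The NEC library enters 2 of the 3 comparisons, which ties them together. The PCI34051+NEC column was matched to its sample by the shared NEC7 of its name and because no other column names an inhibitor, so every PCI34051+NEC value rests on that match.

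Neurotensin made the largest difference of the 10 genes. Nts (ENSMUSG00000019890, chromosome 10, 102481756 to 102490486, minus strand, mm10) encodes neurotensin, a peptide released after fat meals that promotes fatty acid absorption. Its level was 88.2 CPM with PCI34051 (1342 counts), 13.4 CPM in NEC (147 counts) and 153.5 CPM in control (2440 counts). The NEC library was thus by far the lowest, and the PCI34051+NEC library lay between it and the control. Nts was 11.4-fold lower in NEC than in control (9.68 to 13.6), a log2 fold of -3.42. It was 6.57-fold higher in PCI34051+NEC than in NEC (5.53 to 7.84), and 1.74-fold lower in PCI34051+NEC than in control (1.63 to 1.86). After correction for GC content and transcript length its log2 fold of NEC over control was -2.85, and that of PCI34051+NEC over NEC was 1.98, against 2.63 without it.

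The other ileal and colonic hormones differed less and in parallel. Pyy (chromosome 11, 102106676 to 102107832, minus strand) encodes peptide YY, which slows gut transit and reduces food intake. It was at 34.6 CPM in PCI34051+NEC, 30.2 CPM in NEC and 59.8 CPM in control, so that both model libraries were low. The ratio was 1.98-fold lower in NEC than in control (1.74 to 2.25) and 1.73-fold lower in PCI34051+NEC than in control (1.56 to 1.93). Between PCI34051+NEC and NEC it was 1.14 (0.994 to 1.32), within counting error, although the log2 fold of 0.19 became 0.97 after correction for GC content and transcript length. With that correction the Pyy log2 fold of PCI34051+NEC over control was -0.48 in place of -0.77. Gcg (chromosome 2, 62474530 to 62483650, minus strand) encodes proglucagon, the precursor of GLP-1 and GLP-2. It had 65, 28 and 95 counts in PCI34051+NEC, NEC and control, or 4.27, 2.56 and 5.98 CPM. It was 2.34-fold lower in NEC than in control (1.52 to 3.70), with a log2 fold of -0.97 that does not reach 2-fold after the pseudocount. Against NEC, Gcg was 1.67-fold higher with PCI34051 (1.06 to 2.70), and against control it was 1.40-fold lower (1.01 to 1.95). Gcg and Pyy are made by the same L cells, and their ratio within a library is free of scaling. There were 12.4 Gcg counts per 100 Pyy counts in PCI34051+NEC (9.40 to 16.0), 8.46 in NEC (5.54 to 12.5) and 9.99 in control (8.0 to 12.3), and these intervals overlap. Nts per 100 Pyy counts was 255 in PCI34051+NEC (230 to 283), 44.4 in NEC (36.3 to 54.1) and 257 in control (238 to 277), so that the NEC library alone stood apart. Such ratios are not free of GC content, which was 39.4% for Nts and 57.3% for Pyy. After correction for GC content and transcript length the 2 genes lay closer together. Their log2 folds were then -2.85 (Nts) and -1.49 (Pyy) in NEC over control, and 1.98 and 0.97 in PCI34051+NEC over NEC.

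**Figure D1:**
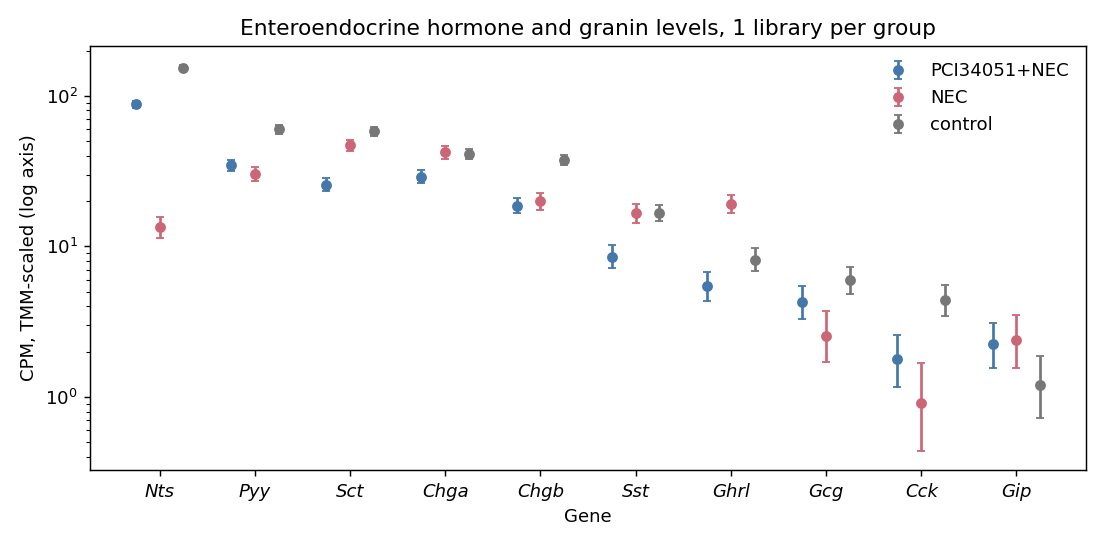
CPM of the 10 genes (log axis) in the PCI34051+NEC, NEC and control libraries, 1 library each, with exact Poisson 95% intervals as bars and genes ordered by their control level. Nts was at 13.4 CPM in NEC against 153.5 CPM in control, and Ghrl was highest in NEC at 19.1 CPM.

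Among the hormones of the upper intestine, Cck and Sct were lower in both model libraries than in control and Gip was higher. Cck (chromosome 9, 121489824 to 121495694, minus strand) encodes cholecystokinin, which empties the gallbladder and stimulates the pancreas. It had 27 counts in PCI34051+NEC, 10 in NEC and 70 in control, or 1.77, 0.913 and 4.40 CPM. Cck was 4.82-fold lower in NEC than in control (2.47 to 10.5) and 2.48-fold lower in PCI34051+NEC than in control (1.57 to 4.03), while the ratio of PCI34051+NEC over NEC, 1.94 (0.911 to 4.50), was within counting error. Sct (chromosome 7, 141278330 to 141279133, minus strand) encodes secretin, which drives bicarbonate secretion. It was at 25.7 CPM in PCI34051+NEC, 46.9 CPM in NEC and 58.1 CPM in control, the PCI34051+NEC library being lowest. Sct was 2.26-fold lower in PCI34051+NEC than in control (2.01 to 2.55), with a log2 fold of -1.15, and 1.24-fold lower in NEC than in control (1.11 to 1.38). It was 1.82-fold lower in PCI34051+NEC than in NEC (1.6 to 2.09), a log2 fold of -0.84 that turned to 0.12 after correction for GC content and transcript length. Gip (chromosome 11, 96024545 to 96030831, plus strand) encodes the incretin GIP, which raises insulin release. It had 34 counts in PCI34051+NEC, 26 in NEC and 19 in control, or 2.23, 2.37 and 1.20 CPM. Gip was 1.99-fold higher in NEC than in control (1.06 to 3.80) and 1.87-fold higher in PCI34051+NEC than in control (1.04 to 3.47), with intervals that end just above 1.

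Ghrelin alone of the 10 genes was 2-fold higher in NEC than in control. Ghrl (ENSMUSG00000064177, chromosome 6, 113716119 to 113719880, minus strand) encodes the appetite-stimulating hormone ghrelin. Its level was 5.45 CPM with PCI34051 (83 counts), 19.1 CPM in NEC (209 counts) and 8.18 CPM in control (130 counts), and the NEC library was highest. Ghrl was 2.33-fold higher in NEC than in control (1.87 to 2.93) and 3.50-fold lower in PCI34051+NEC than in NEC (2.70 to 4.57). It was 1.5-fold lower in PCI34051+NEC than in control (1.13 to 2.0). The annotation places 2 other genes overlapping Ghrl (Gm26982 and Gm44033), which are not in the table, and reads from either strand may have been counted in Ghrl. Mboat4, the acyltransferase that activates ghrelin by attaching a fatty acid, was likewise highest in NEC, with 7 counts in PCI34051+NEC, 63 in NEC and 0 in control. It was at least 30.5-fold higher in NEC than in control against a floor of 3 counts per library, and 12.5-fold lower in PCI34051+NEC than in NEC (5.73 to 32.4). Stomach markers were near 0: 4, 5 and 4 of 9 were at 0 in PCI34051+NEC, NEC and control, 1 was not found by its symbol, and the summed level was 1.45, 2.19 and 0.503 CPM.

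Somatostatin, the hormone of D cells, and the granins, which are spread over many enteroendocrine cell types, were lower in PCI34051+NEC than in control. Sst (chromosome 16, 23889573 to 23890958, minus strand) encodes the inhibitory hormone somatostatin. It was at 8.54 CPM in PCI34051+NEC, 16.6 CPM in NEC and 16.7 CPM in control, and the PCI34051+NEC library was lowest. Sst was 1.95-fold lower in PCI34051+NEC than in control (1.58 to 2.43) and 1.95-fold lower than in NEC (1.55 to 2.46). With the correction for GC content and transcript length, the Sst log2 fold of NEC over control was -0.46 in place of -0.00, and that of PCI34051+NEC over NEC -0.12 in place of -0.89. For PCI34051+NEC over control it was -0.57 in place of -0.89. Chga (chromosome 12, 102554969 to 102565028, plus strand), the chromogranin used as a general marker of enteroendocrine cells, was at 29.1 CPM in PCI34051+NEC, 42.1 CPM in NEC and 41.1 CPM in control. Its ratio of NEC over control, 1.02 (0.908 to 1.16), was within counting error, and it was 1.41-fold lower in PCI34051+NEC than in control (1.25 to 1.6). The same correction put the Chga log2 fold of NEC over control at -0.43 and that of PCI34051+NEC over NEC at -0.02, against -0.52 without it. Chgb (chromosome 2, 132781278 to 132795079, plus strand), the second chromogranin, was at 18.7 CPM in PCI34051+NEC, 19.9 CPM in NEC and 37.6 CPM in control, and both model libraries were low. Chgb was 1.89-fold lower in NEC than in control (1.61 to 2.21) and 2.01-fold lower in PCI34051+NEC than in control (1.75 to 2.33). The granins were thus unequal: there were 64.1 Chgb counts per 100 Chga counts in PCI34051+NEC (55.0 to 74.6), 47.3 in NEC (40.1 to 55.7) and 91.4 in control (81.7 to 102). Chgb and Sst, the members with a CRE in the window shown above, had PCI34051+NEC over control ratios of 0.497 and 0.512, but NEC over control ratios of 0.530 and 0.997. Cck (0.403) and Sct (0.442), which hold no CRE in their windows, had lower PCI34051+NEC over control ratios. The low ratio was thus not particular to members with a CRE.

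**Figure D2:**
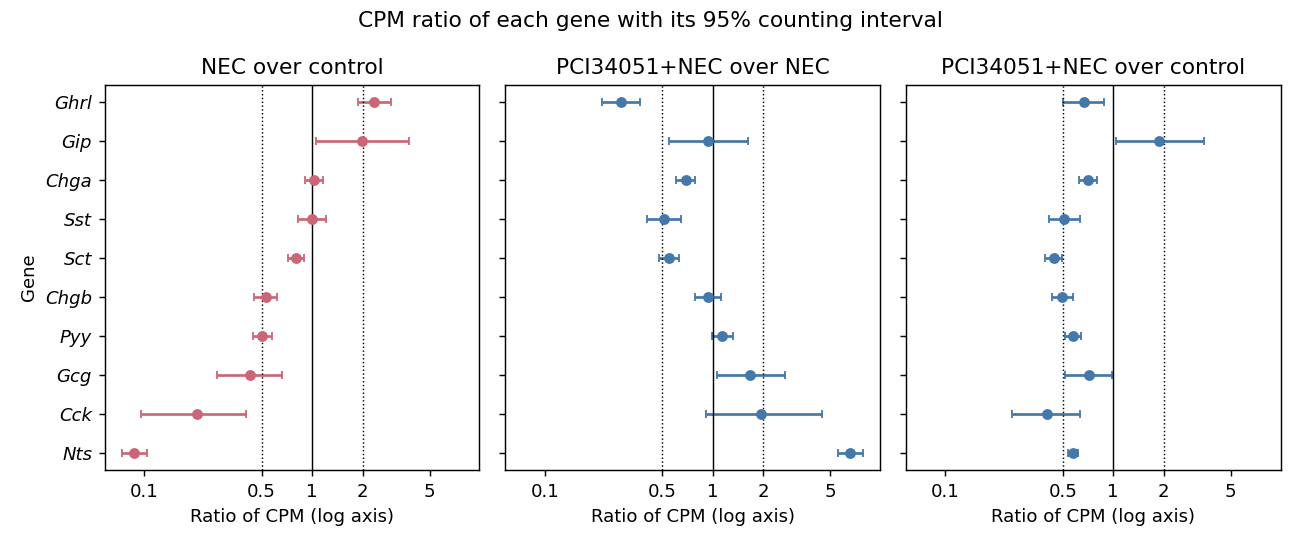
Ratio of CPM (log axis) for each gene in NEC over control, PCI34051+NEC over NEC and PCI34051+NEC over control, with 95% counting intervals as bars, a solid line at 1 and dotted lines at 2-fold. In PCI34051+NEC over control 9 of 10 genes lie below 1 and Gip above it, while in NEC over control the genes spread from 0.087 (Nts) to 2.33 (Ghrl).

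Taken by comparison, the 10 genes all passed the filter of 1 CPM in 1 library of each comparison. In NEC over control Ghrl was 2-fold higher, whereas Nts and Cck were 2-fold lower. Among 14627 measured genes 24.2% were 2-fold higher and 22.9% were 2-fold lower, so that 1 and 2 of 10 were near that background. Intervals lay wholly below 1 for 6 genes (Chgb, Gcg, Cck, Sct, Nts and Pyy) and wholly above 1 for Gip and Ghrl, where 43.0% and 41.5% of measured genes had such intervals. Over the 10 genes the median log2 fold stood at -0.59, against -0.03 over all measured genes. After correction for GC content and length the 2-fold lower genes were 4, with Pyy (-1.49) and Sct (-1.07) beside Nts and Cck. The share of all measured genes was not computed after that correction. For PCI34051+NEC over NEC, Nts was 2-fold higher and Ghrl 2-fold lower, as were 25.0% and 25.6% of 14410 measured genes, and the median was -0.08, against 0.01 over all measured genes. Chga, Sct, Ghrl and Sst had intervals wholly below 1, and Gcg and Nts wholly above it, where 42.0% and 43.1% of measured genes did.

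Compared with control, the PCI34051+NEC library was lower in 9 of the 10 genes. Sct alone was 2-fold lower and none was 2-fold higher, where 6.55% of 13652 measured genes were in each direction. The counting interval lay wholly below 1 for 9 of the 10 genes and wholly above 1 for Gip. Among all measured genes 33.2% had an interval wholly below 1 and 34.8% wholly above it. The 9 ratios lay between 0.403 (Cck) and 0.714 (Gcg). The median log2 fold was -0.78, against -0.00 over all measured genes, whose quartiles were -0.40 and 0.39. The 2-fold count depends on values close to the threshold: it was 4 with total counts in place of TMM and 0 after correction for GC content and length, where Sct was at -0.90 and the median at -0.53. No share of all measured genes was computed under those 2 settings.

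The make-up of the hormone transcripts, which does not depend on scaling between libraries but can depend on GC content and transcript length, differed in NEC. Nts took 40.4% of the counts of the 10 genes in PCI34051+NEC (38.7 to 42.0), 6.92% in NEC (5.91 to 8.08) and 39.7% in control (38.5 to 40.9). Ghrl took 2.50% in PCI34051+NEC (2.02 to 3.08), 9.84% in NEC (8.64 to 11.2) and 2.12% in control (1.79 to 2.51). For both genes the PCI34051+NEC and control intervals overlap and the NEC interval lies apart. Pyy held 15.8%, 15.6% and 15.5% in the 3 libraries, whereas Sct held 11.8% in PCI34051+NEC, 24.1% in NEC and 15.0% in control. These shares are not corrected for GC content and transcript length. With that correction the log2 fold of NEC over control was -2.85 in place of -3.42 for Nts. For Ghrl it was 1.07 in place of 1.13, for Sct -1.07 in place of -0.30 and for Pyy -1.49 in place of -0.96. Summed over the 10 genes the level was 218 CPM in PCI34051+NEC, 194 CPM in NEC and 387 CPM in control. Without Nts the sum was 130 CPM, 181 CPM and 233 CPM, so that the NEC library was then above the PCI34051+NEC library.

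**Figure D3:**
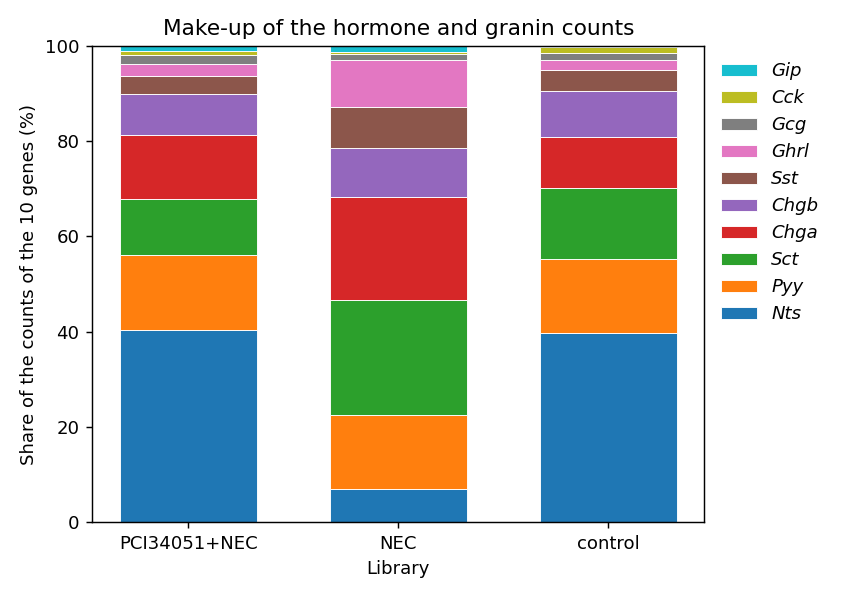
Share of the summed counts of the 10 genes taken by each gene (stacked bars, %) in the PCI34051+NEC, NEC and control libraries. Nts takes 40.4% in PCI34051+NEC, 6.92% in NEC and 39.7% in control, and the Ghrl and Sct bands are widest in NEC.

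Between genes, levels were compared per kilobase of exon. In the control library Nts (123 CPM per kb) stood above Pyy (94.8) and Sct (90.0), followed by Sst (23.1), Chga (14.9), Chgb (13.7), Ghrl (7.58), Gcg (4.00), Cck (3.38) and Gip (1.74). Within that order Pyy and Sct, Chga and Chgb, and Gcg and Cck did not differ beyond counting error. With PCI34051 the order was the same down to Ghrl (5.05 CPM per kb), and Gip (3.25), Gcg (2.86) and Cck (1.36) followed, where Sst and Chga, and Gip and Gcg, did not differ beyond counting error. In NEC, Sct (72.6 CPM per kb) was first, and Pyy (47.9), Sst (23.1), Ghrl (17.7), Chga (15.3), Nts (10.8), Chgb (7.27), Gip (3.46), Gcg (1.71) and Cck (0.70) came after it. Ghrl and Chga alone were neighbours within counting error there.

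Because these cells are epithelial, their levels were also set against 16 pan-epithelial genes, whose summed level was 12008 CPM in PCI34051+NEC, 6549 CPM in NEC and 10453 CPM in control. Per 1000 epithelial CPM, Chga was at 2.42 in PCI34051+NEC, 6.43 in NEC and 3.93 in control. Nts per 1000 epithelial CPM was at 7.34, 2.05 and 14.7, and Ghrl at 0.454, 2.91 and 0.782. In NEC over control the median log2 ratio of the 10 genes on this scale was 0.06, with Ghrl and Gip 2-fold higher and Nts and Cck 2-fold lower. Among the 16 epithelial genes themselves 4 were 2-fold higher and 8 were 2-fold lower in NEC than in control, and this scale depends on the gene chosen. Against Epcam alone, an epithelial adhesion molecule at 2797, 404 and 2731 CPM, the median was 2.14 and 8 of the 10 genes were 2-fold higher. For PCI34051+NEC over control the median was -1.0 with 5 of 10 genes 2-fold lower on the scale of 16 genes, and -0.83 with 3 lower against Epcam alone. Dividing by an epithelial level shifts every gene of a library alike. The share of all measured genes past 2-fold was not computed on either scale. These counts and medians are therefore not particular to the 10 genes.

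Of the transcription factors listed for enteroendocrine cells, 6 were 2-fold higher in NEC than in control, while Neurod1, Insm1 and Rfx6 were not. Of 17 such genes, 11 were measured in NEC over control, and 6 of these were 2-fold higher while none was 2-fold lower (median 1.22). Between PCI34051+NEC and NEC 5 of 10 were 2-fold lower and none was 2-fold higher (median -1.17), and between PCI34051+NEC and control none of 7 was 2-fold apart (median -0.10). Here and for the lists that follow, the shares over all measured genes were 24.2% higher and 22.9% lower in NEC over control, 25.0% and 25.6% in PCI34051+NEC over NEC, and 6.55% each way in PCI34051+NEC over control. Pax6, a factor for proglucagon transcription, had 13, 53 and 9 counts in PCI34051+NEC, NEC and control, and was 8.55-fold higher in NEC than in control (4.18 to 19.7). Nkx2-2 had 2, 29 and 5 counts, and Isl1 was at 0.394, 2.65 and 0.566 CPM. Etv1 was at 10.7, 61.6 and 14.2 CPM, and Myt1 at 1.84, 6.76 and 1.45 CPM. Neurod1, which acts late in the lineage, was at 1.05, 1.64 and 1.76 CPM, Insm1 at 2.10, 4.11 and 2.33 CPM, and Rfx6 at 0.920, 1.37 and 0.881 CPM. Neurog3, which starts the lineage, had 0, 0 and 1 counts, under the floor of 3 counts. Foxa1 was at 19.9, 11.7 and 20.2 CPM, St18 at 1.58, 4.02 and 1.07 CPM and Lmx1a at 0.394, 0.822 and 1.20 CPM.

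Most prohormone processing and granule genes were higher in NEC, with Pam, Pcsk1 and Ptprn2 as exceptions. In NEC, 8 of 12 genes were 2-fold higher than in control and Ptprn2, with 0 counts in NEC and 38 in control, was 2-fold lower (median 1.38). With PCI34051, 8 were 2-fold lower than in NEC and Ptprn2 was 2-fold higher (median -1.22), and none of 11 was 2-fold apart from control (median -0.20). The prohormone convertases differed from each other: Pcsk1, which cuts proglucagon to GLP-1, was at 3.81, 4.02 and 4.53 CPM in PCI34051+NEC, NEC and control, and Pcsk2, which cuts it to glucagon, at 1.51, 18.1 and 2.89 CPM. Pcsk1n, an inhibitor of Pcsk1, was 5.64-fold higher in NEC than in control (5.07 to 6.28), at 19.8, 154 and 27.2 CPM in the 3 libraries. The granule membrane protein gene Ptprn was at 7.49, 62.3 and 9.0 CPM, and Vgf at 1.64, 10.7 and 1.45 CPM. Cpe, the carboxypeptidase of prohormone processing, was at 99.6, 214 and 83.3 CPM, whereas Pam, which amidates peptides, was at 137, 71.2 and 141 CPM. The granins Scg2 (13.9, 22.6 and 18.8 CPM) and Scg3 (4.53, 11.4 and 4.28 CPM) and the chaperone Scg5 (5.72, 15.3 and 5.10 CPM) were also highest in NEC.

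Most exocytosis genes and neuronal markers were also higher in NEC. Of 13 exocytosis and excitability genes, 12 were measured, and 9 of these were 2-fold higher in NEC than in control (median 1.89). With PCI34051, 10 were 2-fold lower than in NEC (median -2.16) and none was 2-fold apart from control (median 0.02). Examples are Celf3 (8.15, 47.9 and 6.35 CPM in PCI34051+NEC, NEC and control), Scn3a (3.02, 19.4 and 2.77 CPM) and Syp (10.5, 59.6 and 14.6 CPM). Of 15 enteric neuron markers, which share Snap25 with that list, 12 were 2-fold higher in NEC than in control and Ret was 2-fold lower (median 1.87), and none was at 0 in any library. With PCI34051, 13 were 2-fold lower than in NEC and Ret was 2-fold higher (median -2.30). Their summed level was 317 CPM in PCI34051+NEC, 1070 CPM in NEC and 387 CPM in control, led by Prph (40.3, 396 and 44.7 CPM), a neuronal intermediate filament. The summed level of 10 smooth muscle genes was 1716, 12943 and 1885 CPM, 8 of them being 2-fold higher in NEC than in control and 9 being 2-fold lower in PCI34051+NEC than in NEC. The part of neuronal and muscle-wall tissue in the levels of the transcription factor, processing and exocytosis genes, and in those of Sst, Cck, Nts and the granins, was not tested.

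**Figure D4:**
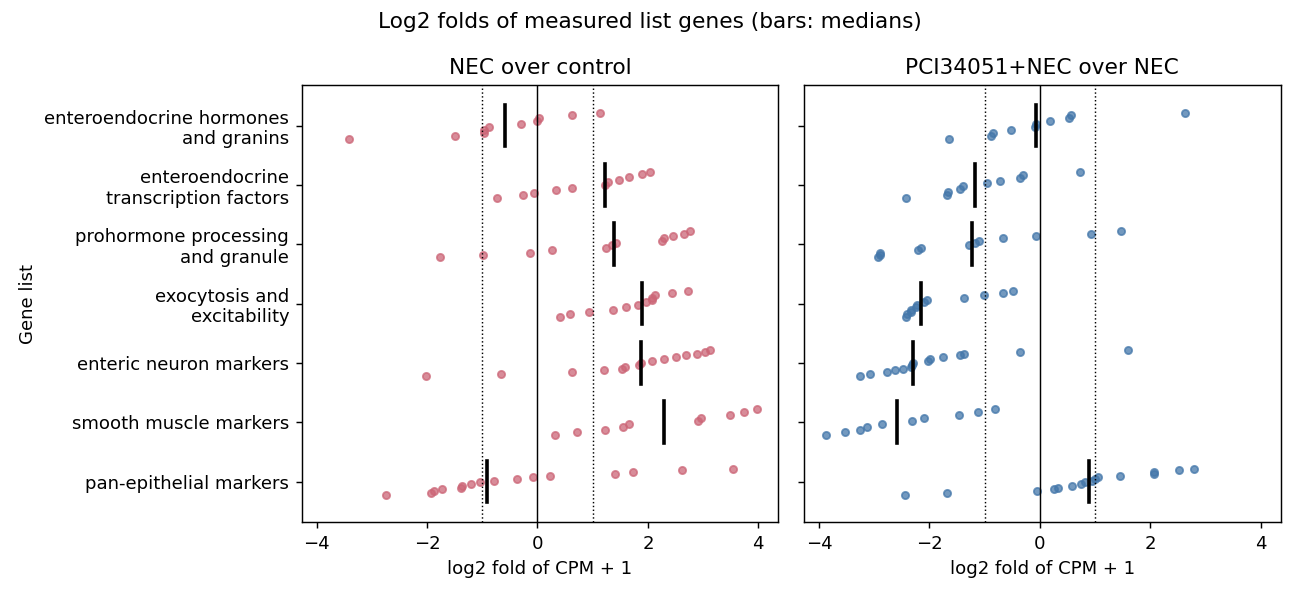
Log2 folds on the CPM + 1 scale of the measured genes of each list (points) in NEC over control and PCI34051+NEC over NEC, with medians as bars and dotted lines at 2-fold. In NEC over control the medians are 1.22 for transcription factors, 1.38 for processing and granule, 1.89 for exocytosis and 1.87 for enteric neuron markers, against -0.59 for the 10 hormone and granin genes and -0.92 for pan-epithelial genes.

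Serotonin genes, other hormones and nutrient sensors were few and went both ways. Of 6 serotonin genes, Slc18a2 was 2-fold higher and Slc18a1 2-fold lower in NEC than in control (median -0.51). With PCI34051, 3 were 2-fold higher and Slc18a2 was 2-fold lower than in NEC (median 0.73), and 2 were 2-fold higher than in control (median -0.24). Tph1, which makes serotonin in enterochromaffin cells, was at 1.38, 1.46 and 2.71 CPM in PCI34051+NEC, NEC and control. Slc18a1, the monoamine transporter of endocrine granules, was 7.91-fold lower in NEC than in control (6.72 to 9.37), at 102.5, 14.3 and 113 CPM, and Slc18a2, its neuronal relative, was highest in NEC at 5.65, 28.6 and 7.36 CPM. Slc6a4, the serotonin reuptake transporter, was 2.14-fold higher in PCI34051+NEC than in control (1.85 to 2.48).

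Of 8 other gut hormone genes, 4 were measured in NEC over control (Tac1 2-fold higher, both guanylin-type genes lower, median -0.51), 4 in PCI34051+NEC over NEC (2 higher, 2 lower, median 0.21, or 0.34 with the gene at 0 counts at the floor) and 3 in PCI34051+NEC over control (none 2-fold apart, median -0.40). Guca2a, which encodes guanylin and is also expressed by goblet and absorptive cells, was at 1521, 292 and 2570 CPM, and Tac1, the substance P precursor of neurons and enterochromaffin cells, at 7.36, 25.0 and 10.0 CPM. Gast had 0 counts in all 3 libraries, and Insl5, a hormone of colonic L cells, had 0, 15 and 15. Of 11 nutrient-sensing receptors, 4 were measured in NEC over control, Gpbar1 being 2-fold higher and Lpar5 2-fold lower (median 0.13). With PCI34051, Lpar5 and Ffar4 were 2-fold higher and Gpbar1 2-fold lower than in NEC (median 1.02), and Ffar4 was 2-fold higher than in control (median 0.40 of 3). Ffar4, a receptor for long-chain fatty acids, was 8.93-fold higher in PCI34051+NEC than in control (7.42 to 10.8), at 71.3, 16.5 and 7.99 CPM. Lpar5, a receptor for lysophosphatidic acid, had 196, 3 and 151 counts. Ffar2, a receptor for short-chain fatty acids, was at 2.82, 2.83 and 5.22 CPM.

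On the receiving side, the secretin receptor gene differed far more between NEC and control than Sct, which was 1.24-fold lower in NEC (1.11 to 1.38). Of 18 receptor genes, 11 were measured in NEC over control, and 4 of these were 2-fold higher and 2 were 2-fold lower (median 0.51), where 24.2% and 22.9% of all measured genes were. With PCI34051, 1 of 10 was 2-fold higher and 5 were 2-fold lower than in NEC (median -0.82), and Gipr alone of 11 was 2-fold lower than in control (median -0.03). The secretin receptor gene Sctr was at 1.12, 22.1 and 1.13 CPM in PCI34051+NEC, NEC and control, 19.5-fold higher in NEC than in control (12.1 to 33.5). Sct itself was highest in control. The neurotensin receptor gene Ntsr1 had 8, 59 and 19 counts, and so was highest in the library where Nts was lowest. The GIP receptor gene Gipr was 4.27-fold lower in PCI34051+NEC than in control (2.91 to 6.43), at 2.17, 5.39 and 9.25 CPM. The part of neuronal and muscle-wall tissue in the levels of the receptor genes was not tested. Of 6 hormone-degrading peptidases, 5 were measured, of which 3 were 2-fold lower in NEC than in control (median -1.17), 4 were 2-fold higher in PCI34051+NEC than in NEC (median 2.14) and Anpep was 2-fold higher in PCI34051+NEC than in control (median 0.69). Dpp4, which inactivates GLP-1 and GIP and is abundant on the enterocyte brush border, was at 306, 68.8 and 156 CPM.

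Markers of the pancreas and of gut region stood as follows. The insulin genes Ins1 and Ins2 and the islet genes Slc30a8 and Pdx1 had 0 counts in all 3 libraries. Pdx1 is also among the 5 listed genes of the upper small intestine. Of the 10 islet markers, 5, 7 and 5 were at 0 in PCI34051+NEC, NEC and control, and their summed level of 55.8, 9.50 and 54.8 CPM was mostly the sugar transporter gene Slc2a2 (54.9, 7.03 and 53.5 CPM), which enterocytes also express. Of 11 acinar markers, 5, 6 and 5 were at 0 and the sum was 8.28, 10.0 and 10.6 CPM. Genes of the upper small intestine went both ways: Gata4 was at 46.4, 8.95 and 3.21 CPM, whereas Adh6a had 10, 253 and 0 counts. The 5 genes summed to 1156, 388 and 812 CPM, mostly Cubn (1108, 355 and 809 CPM), while 2 of 4 measured were 2-fold higher and 1 was 2-fold lower in NEC than in control (median 0.95). The 3 ileal genes summed to 150, 82.1 and 66.1 CPM. The bile acid transporter gene Slc10a2 was a small part of that sum, at 6.18, 1.83 and 0.252 CPM. The 3 genes did not differ alike. Their log2 folds ran from -0.02 to 1.18 in NEC over control and from -0.34 to 1.43 in PCI34051+NEC over NEC. In PCI34051+NEC over control they ran from 0.35 to 2.52. Of 8 large intestine genes, 4, 5 and 5 were at 0, with a sum of 107, 67.7 and 78.9 CPM led by Slc26a3. The part of segment or sampling in the hormone levels was not tested.

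The genes most like Chga over the 3 libraries, by the distance between their pairs of log2 folds (NEC over control, and PCI34051+NEC over NEC), were Acaca, Stx6, Slc18b1, 2310022B05Rik and Plekhm2, at distances of 0.01 to 0.04. With 3 libraries such likeness is common: of 10526 genes at 10 CPM or more, 204 lay within 0.25 of Chga. Of the members that could be compared, Sst (0.37) and Sct (0.47) were nearest to Chga, and Nts was farthest (4.67). Among the 10526 genes Sst ranked only 478 and Sct 755 in nearness to Chga.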

How the data were processed

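The deposited file is a table of unnormalised counts, with a row per gene symbol and a column per library. Per the submitters' processing notes the genome build was mm10. Per the labels' protocols, total RNA was sequenced with paired 150 bp reads on an Illumina instrument. How reads were aligned, annotated, filtered and counted by strand is not given in the sources used here, and reads of overlapping genes on either strand could not be separated. Coordinates, exon lengths and GC content came from GENCODE M21 on the same build (21926 symbols matched), and promoters from RefSeq.

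TMM scaling was done in edgeR 4.0.16 under R 4.3.3 (factors 0.923, 1.03 and 1.05 for PCI34051+NEC, NEC and control). A pseudocount of 1 CPM, a filter of 1 CPM in 1 library of a comparison and a 2-fold threshold were used. A count of 0 has a floor of 3 counts (0.197, 0.274 and 0.189 CPM). With 1 library per group no replicated test was possible. The members, lists and thresholds were chosen with earlier results of these data known. Named genes were the members, up to 5 per list with the largest log2 fold at 2 CPM or more, measured transcription factor and processing genes, the leading markers and the 5 genes most like Chga. Outside this rule, Ins1, Ins2, Slc30a8, Pdx1, Gast, Insl5, Tph1 and Neurog3 were named after their values were seen. The folds and intervals were tested on simulated Poisson counts without spread between libraries, which covers counting error only. Other settings tried were size factors from DESeq2 1.42.0, no scaling beyond total counts, TMM without the 50 most abundant and mitochondrially encoded genes, correction of folds for GC content and then transcript length (medians of 30 bins, known for 99.7% of genes), pseudocounts of 0.25 and 4, no filter or 5 CPM, thinning to 10650638 counts, other fold rules and, added after seeing the data, TMM over 2 libraries alone. Analyses ran in Python 3.11.15.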

Additional observations from a re-analysis of the deposited data

How the results depend on the processing

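No member's fold of CPM that was 2-fold or more changed sign under the alternatives of scaling, pseudocount, correction or depth, but relative to Epcam alone 2 did so on the epithelial scale: Cck in NEC over control (0.49 in place of -1.60) and Nts in PCI34051+NEC over NEC (-0.07 in place of 1.84). Of 108 recomputed counts and medians 88 stayed within 1.5 times or counting error, of 240 recomputed folds of single genes 223 did, and of 12 recomputed counts per epithelial level 6 did. The setting without a filter could change none of these, because all 10 genes passed the filter. A change from 2 to 3 genes is within 1.5 times, as with total counts in NEC over control. Correcting for GC content and transcript length put 4 members at least 2-fold lower in NEC over control, 2 at least 2-fold higher and a median of 0.27 in PCI34051+NEC over NEC, and 0 lower in PCI34051+NEC over control. A pseudocount of 4 left 0 higher and 1 lower in NEC over control, and one of 0.25 gave 2 lower in PCI34051+NEC over control. At 5 CPM or more 1 of 8 members was lower in NEC over control, and the median of 7 was -0.52 in PCI34051+NEC over NEC. Total counts gave 2 lower in PCI34051+NEC over NEC and 4 lower in PCI34051+NEC over control, and thinning gave 2 lower there. A 1.5-fold threshold gave 2 higher and 5 lower in NEC over control. It gave 3 lower in PCI34051+NEC over NEC and 6 lower in PCI34051+NEC over control. Requiring the counting interval beyond 2-fold left 0 higher in NEC over control. The share of all measured genes was not computed under any of these other settings, so the counts have no background beside them. Per epithelial level, the median in NEC over control was 0.47 without Lgals4 and 2.14 with Epcam alone, and in PCI34051+NEC over NEC it was -0.97, or -2.88 with Epcam alone. Beyond settings that change the threshold, filter, scale or genes by construction, the cause was not tested. TMM over the 2 libraries of a comparison moved no member's fold by more than 0.03. Cck, Gip and Gcg, at 10 to 95 counts, are limited by depth. No paired analysis was possible because each group has 1 library, and for the same reason no replicate could be left out.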
